A study of Mus musculus with 12 samples.

Results

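The genes described here are 34 mouse genes that remove superoxide and peroxides, make and recycle glutathione, conjugate it to other molecules, bind metals, or control the transcription of this machinery. They were chosen by gene symbol. All 34 were found among the 29957 named entries of the microglia table and among the 14663 of the hippocampus table. By role they are 3 superoxide dismutases, 4 genes of catalase and the glutathione peroxidases, 7 of the peroxiredoxins and their repair enzyme, and 7 of the thioredoxin system. The other roles are glutathione synthesis and recycling with 4 genes, and the NRF2 axis, the metallothioneins and the glutathione transferases with 3 genes each.

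The samples came from C57BL/6 mice, with 4 groups of 3 samples. Microglia, the macrophages that reside in the brain, were taken from the hippocampus of old mice at 24 months and of young mice at 3 months, and bulk hippocampus was taken from aged mice at 18 months and from mature mice at 6 months. No genotype or agent beyond strain and age is named for any group. The labels do not give the way in which microglia were isolated, nor whether each sample is a different mouse. P-values here measure the spread between samples, which may be technical.

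Cells make superoxide and hydrogen peroxide during respiration, and phagocytes such as microglia also make them with an NADPH oxidase. Superoxide dismutases turn superoxide into hydrogen peroxide, which catalase, glutathione peroxidases and peroxiredoxins reduce to water. Thioredoxin and glutathione supply the electrons. The transcription factor NRF2, encoded by Nfe2l2 and held in check by KEAP1, drives many of these genes through a short DNA motif, the antioxidant response element. The metallothionein genes Mt1 and Mt2 answer to zinc and cadmium through metal response elements.

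The 300 bases around the start site (250 before and 50 after) are shown for genes whose groups did not overlap in the comparisons that follow, and for the other metallothioneins beside Mt3. The sequences are those of RefSeq on GRCm38.p6 and are printed 5′ to 3′ on the plus strand, on which all of these genes lie. Capitals mark the antioxidant response element core (TGACNNNGC, read on both strands) in Prdx1 at chr4:116685349-116685648, in Srxn1 at chr2:152105274-152105573 and in Txnrd1 at chr10:82858956-82859255. Txnrd1 has 3 listed promoters, and the window printed is the first of them that holds the core, so it was picked for having it.
Prdx1: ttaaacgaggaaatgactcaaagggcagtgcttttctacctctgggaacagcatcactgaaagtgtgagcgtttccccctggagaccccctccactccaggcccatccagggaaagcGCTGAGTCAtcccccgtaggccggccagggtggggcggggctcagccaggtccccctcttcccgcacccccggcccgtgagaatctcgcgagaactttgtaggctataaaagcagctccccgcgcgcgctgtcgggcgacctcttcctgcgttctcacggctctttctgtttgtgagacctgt
Srxn1: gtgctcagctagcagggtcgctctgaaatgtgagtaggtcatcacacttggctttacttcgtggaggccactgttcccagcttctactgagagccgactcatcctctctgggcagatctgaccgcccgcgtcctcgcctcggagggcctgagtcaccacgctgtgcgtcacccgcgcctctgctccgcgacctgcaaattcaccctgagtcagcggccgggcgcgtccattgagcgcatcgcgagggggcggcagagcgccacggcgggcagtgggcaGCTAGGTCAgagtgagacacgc
Txnrd1: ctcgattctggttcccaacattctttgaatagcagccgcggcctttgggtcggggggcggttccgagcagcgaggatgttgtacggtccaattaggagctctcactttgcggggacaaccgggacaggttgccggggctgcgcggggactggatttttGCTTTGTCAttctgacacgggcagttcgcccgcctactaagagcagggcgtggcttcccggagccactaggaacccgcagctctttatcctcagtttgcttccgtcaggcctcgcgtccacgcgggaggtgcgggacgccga

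Capitals in the metallothionein promoters mark the metal response element core (TGCACNC or TGCGCNC, both strands). The windows are chr8:94152357-94152656 for Mt3, chr8:94172368-94172667 for Mt2 and chr8:94178839-94179138 for Mt1.
Mt3: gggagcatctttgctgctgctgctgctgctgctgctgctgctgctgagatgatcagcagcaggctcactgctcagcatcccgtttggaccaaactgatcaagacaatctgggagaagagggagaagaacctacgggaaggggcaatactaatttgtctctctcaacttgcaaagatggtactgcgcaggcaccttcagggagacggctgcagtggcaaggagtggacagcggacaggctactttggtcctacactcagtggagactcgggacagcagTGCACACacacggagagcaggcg
Mt2: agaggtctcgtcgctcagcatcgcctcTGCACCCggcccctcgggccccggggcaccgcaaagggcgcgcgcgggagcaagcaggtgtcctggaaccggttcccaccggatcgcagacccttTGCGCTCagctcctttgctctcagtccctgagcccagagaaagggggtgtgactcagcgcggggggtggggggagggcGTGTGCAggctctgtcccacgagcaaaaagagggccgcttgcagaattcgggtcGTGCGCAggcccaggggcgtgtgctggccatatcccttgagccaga
Mt1: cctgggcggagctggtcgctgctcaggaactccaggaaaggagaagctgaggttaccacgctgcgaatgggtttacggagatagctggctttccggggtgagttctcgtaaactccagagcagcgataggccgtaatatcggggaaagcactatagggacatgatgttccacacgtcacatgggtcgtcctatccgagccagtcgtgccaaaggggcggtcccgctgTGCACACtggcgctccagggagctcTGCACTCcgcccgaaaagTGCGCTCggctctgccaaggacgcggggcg

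The metal response element core occurred 1 time in the Mt3 window, 4 times in the Mt2 window and 3 times in the Mt1 window. RefSeq promoters were listed for 30 of the 34 genes. The antioxidant response element core was found in 7 of these 30 (23.3%), namely Sod1, Prdx1, Txnrd1, Gclm, Srxn1, Nfe2l2 and Mt2, against 14.0% of the 27025 genes with a listed promoter. The metal response element core was found in 10 of the 30 (33.3%), against 28.2% of all genes. A match of these letters is a description of the sequence and not a measured binding site. The Srxn1 and Mt2 windows held matches to both motifs, of which a single kind is capitalised in each.

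Estimated counts of microglia totalled 8068023 to 14217142 per library, and all 10 microglial markers were above 0 in every one of them. Their summed level was 45281, 46465 and 60284 CPM (counts scaled to a common library size, with TMM factors) in the libraries of 24 months, against 66802, 64938 and 63487 CPM in those of 3 months. Libraries of the old group differed among themselves. A list of 19 immediate-early genes summed to 33903, 35793 and 1659 CPM at 24 months, against 2101, 1250 and 1397 CPM at 3 months, so replicates 1 and 2 of 24 months stood apart from the other 4. A list of 10 neutrophil and monocyte markers summed to 2393, 50.8 and 3.61 CPM at 24 months, against 6.27, 9.60 and 1.97 CPM at 3 months, with nearly all of it in 24 month replicate 1. Mural and meningeal markers (10) summed to 294.6, 39.1 and 1.23 CPM at 24 months. At 3 months they summed to 0.522, 1.25 and 0.408 CPM. Among the 7840 genes that averaged over 10 CPM, those lacking any count numbered 186 in 24 month replicate 1 and 394 in 3 month replicate 1, against 26 to 62 in each other library. In hippocampus, all 10 markers each of neurons, astrocytes and oligodendrocytes were above 0 in every sample. Some of the hippocampal marker sums separated the ages. Neuronal markers summed to 15796 to 16037 normalized counts at 18 months, against 13779 to 15364 at 6 months, microglial markers to 585.2 to 662.4 at 18 months, against 488.8 to 581.5 at 6 months, and erythrocyte markers to 1300 to 1511 at 18 months, against 1022 to 1262 at 6 months. Their part in the hippocampal results was not tested. In a bulk sample, fewer cells of a type and less RNA per cell cannot be told apart.

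Microglia expressed the antioxidant genes at levels that spanned several orders of magnitude on the TPM scale (transcript abundance corrected for gene length, on which different genes can be compared). Averaged over the 6 libraries, Sod1 came first at 732.8 TPM, followed by Gpx1 at 577.2, Prdx1 at 351.8, Mt1 at 338.7 and Gpx4 at 303.5 TPM. Sod1, Gpx1, Prdx1 and Mt1 together made up 43.7% to 54.2% of the summed TPM of the 34 genes in a library. Txnip at 248.1, Prdx5 at 213.9, Nfe2l2 at 208.3, Prdx2 at 170.5 and Gstp1 at 165.3 TPM formed the next tier. The ranges of neighbours in this order overlapped, for instance 383 to 824 TPM for Gpx1 and 467 to 839 TPM for Sod1. At the low end, Gclc averaged 6.07, Txnrd1 3.91, Gsr 2.19 and Gclm 1.28 TPM. Gpx3, the secreted glutathione peroxidase, and Nqo1, a quinone reductase that is a standard NRF2 target, had no count in any library, and Sod3, the secreted superoxide dismutase, had a single count in 24 month replicate 1. A count of 0 allows a level of up to 0.204 to 0.374 CPM in a library (3 counts, counting error only).

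**Figure D1:**
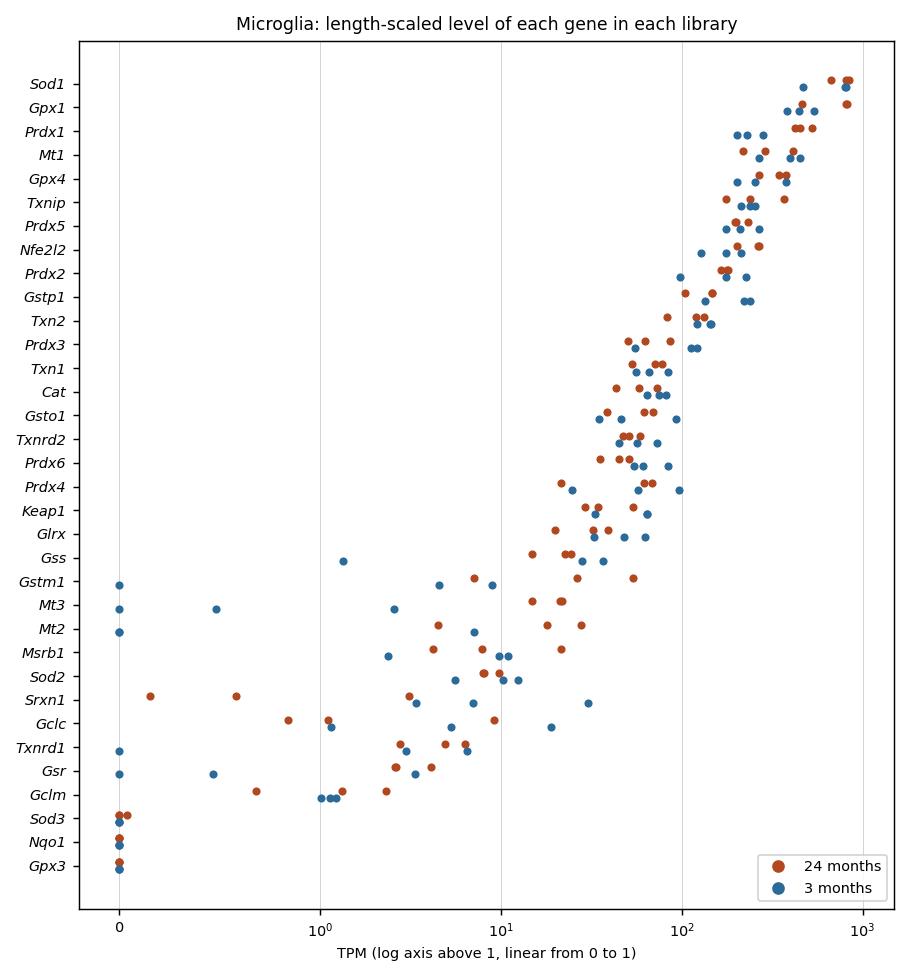
Deposited TPM (log axis above 1 TPM, linear from 0 to 1) of the antioxidant genes in microglia, with genes in order of their mean over the 6 libraries and a point for each library of 24 months and of 3 months. Sod1, at a mean of 732.8 TPM, and Gpx1, at 577.2 TPM, head the order, Gclm at 1.28 TPM is near its end, and the libraries of both ages are interleaved for most genes.

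Summed over the 34 genes, the level was 4487, 4422 and 3968 TPM at 24 months, against 3435, 4192 and 3822 TPM at 3 months. The groups overlapped, since 24 month replicate 3 lay below 3 month replicate 2. By role, the 7 genes of the peroxiredoxin group summed to 986 to 1045 TPM at 24 months, against 735 to 1052 TPM at 3 months, and the NRF2 axis, in which Nfe2l2 exceeded Keap1 in every library and Nqo1 had no count, to 255.6 to 299.8 TPM at 24 months, against 192.5 to 246.8 TPM at 3 months. The peroxiredoxin sums overlapped between ages and those of the NRF2 axis did not, although Nfe2l2 and Keap1 each overlapped on both the TPM and the CPM scale. Glutathione synthesis and recycling was the lowest of the 8 roles at both ages, with 28.6 to 29.4 TPM at 24 months, against 8.10 to 48.2 TPM at 3 months.

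In old against young microglia, no antioxidant gene passed the test over all genes, and the list as a whole was split evenly between higher and lower means. Of the 34 genes, 31 passed the filter on low counts and were tested, of which 15 had a log2 change (24 months minus 3 months) above 0, against a background of 50.5% of all genes, and 16 below 0. Within 0.3 of 0 lay 11 of the 31, against 30.4% of all genes. Their median log2 change was -0.02, against 0.01 over all 10663 genes tested. With edgeR's quasi-likelihood test and Benjamini-Hochberg adjustment over all genes, 0 of the 31 had an adjusted p under 0.05, where the background was 0 of 10663 genes (0%) and the smallest adjusted p of any gene was 0.410. An unadjusted p under 0.05 was found for 4 of the 31, against a background of 5.53%. Of these, 3 (Prdx1, Gpx1 and Mt3) were higher, against a background of 3.52%, and 1 (Srxn1) was lower, against a background of 2.02%. All 3 old libraries exceeded all 3 young ones for 2 genes, Prdx1 and Mt3 (background 7.26%), and all 3 were below them for 1 gene, Srxn1 (background 6.18%). In the authors' deposited table for microglia, 1 of the 31 genes with an adjusted p was under 0.05 (Prdx1), against a background of 2.01%.

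**Figure D2:**
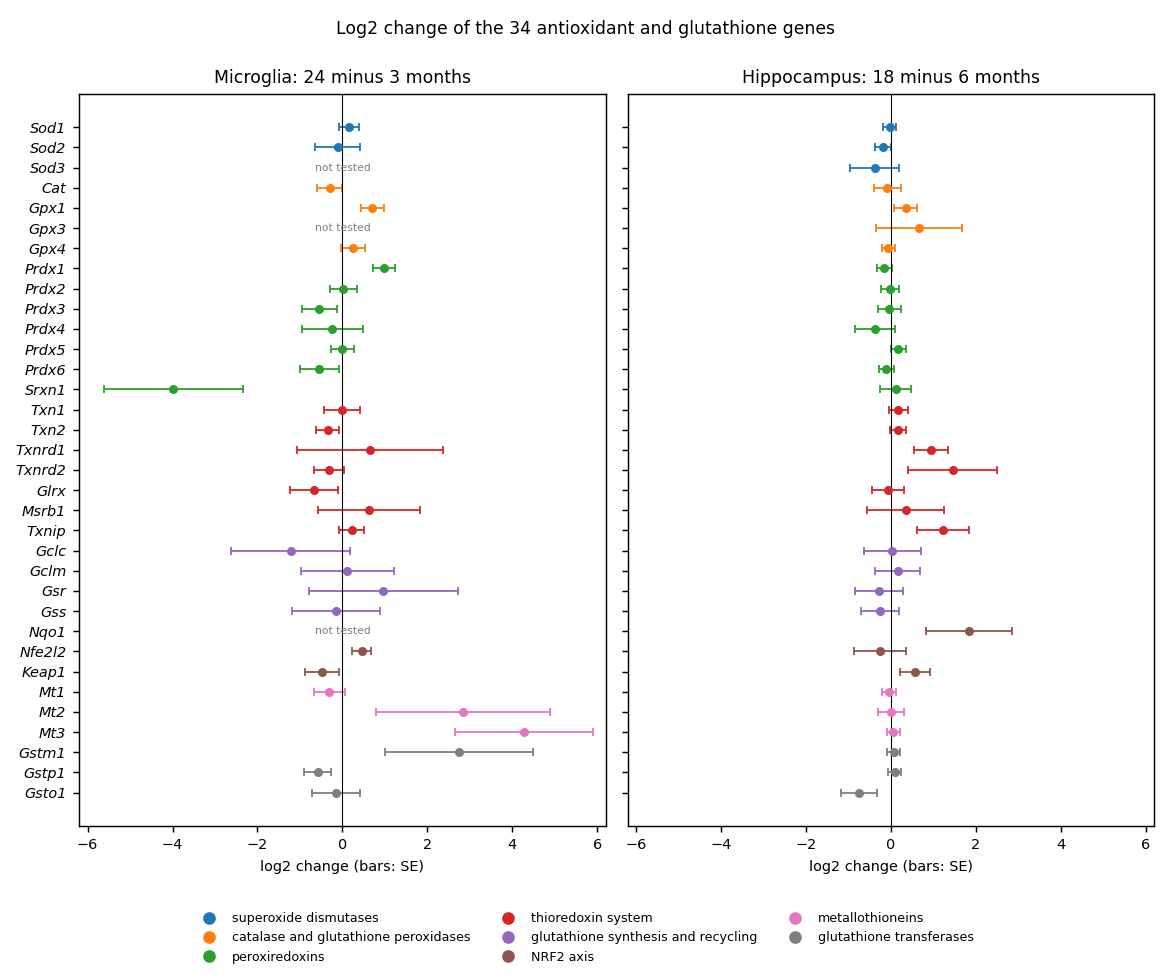
Log2 change with its standard error for each antioxidant gene tested, 24 minus 3 months in microglia (edgeR) and 18 minus 6 months in hippocampus (limma), with genes ordered by role. Prdx1 in microglia (0.97 ± 0.25) and Txnrd1 in hippocampus (0.94 ± 0.41) have the narrower errors of the genes whose groups did not overlap, and Srxn1 (-3.98 ± 1.64) and Mt3 (4.27 ± 1.63) in microglia the wider ones.

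The peroxiredoxins are thiol peroxidases that reduce hydrogen peroxide at a reactive cysteine. Prdx1, the cytosolic member that also acts as a chaperone, had 412.0, 324.9 and 295.9 CPM in microglia of 24 months, against 146.3, 228.7 and 151.1 CPM at 3 months. The groups did not overlap, and the lowest old library was 24 month replicate 3. The means were 344.3 ± 60.4 CPM in old and 175.3 ± 46.2 CPM in young microglia (SD, n = 3 each), a ratio of 1.96. Its log2 change was 0.97 ± 0.25 (SE) with an unadjusted p of 0.00536 and an edgeR adjusted p of 0.611. The adjusted p ran from 0.0683 with DESeq2 to 0.9999 over the alternatives, and in the authors' deposited table the log2 change of 0.99 ± 0.26 (SE) carried an adjusted p of 0.0137. The log2 change was 0.82 to 1.20 when each library was left out in turn, and 0.71 to 1.20 over all alternatives. It was 0.75 with 24 month replicates 1 and 2, which stood apart in their immediate-early genes, both left out. The antioxidant response element core in the promoter printed for Prdx1 begins 133 bases before the start site.

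Srxn1 encodes sulfiredoxin, which repairs peroxiredoxins whose cysteine has been over-oxidised. It had 0.318, 0.303 and 2.85 CPM at 24 months, against 44.6, 7.36 and 3.27 CPM at 3 months, from 3, 3 and 30 counts against 598, 59 and 48 counts. The groups did not overlap, but 24 month replicate 3 and 3 month replicate 3 lay close together and 3 month replicate 1 was far above the rest. Its log2 change was -3.98 ± 1.64 (SE), with an unadjusted p of 0.0429 and an edgeR adjusted p of 0.893. Without 3 month replicate 1 the log2 change was -2.19, and with both replicate 1 libraries left out it was -1.74.

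The 5 other peroxiredoxin genes had log2 changes from -0.55 to 0.01, and all overlapped between ages. Prdx5, found in mitochondria, peroxisomes and cytosol, averaged 161 CPM at both ages, and Prdx2, the other abundant cytosolic form, averaged 119 CPM in old and 118 CPM in young microglia. Prdx3, the mitochondrial form, averaged 65.0 ± 16.0 CPM in old and 95.1 ± 38.6 CPM in young microglia (SD, n = 3 each). Prdx4, of the endoplasmic reticulum, had a log2 change of -0.23 ± 0.71 (SE), and Prdx6, which uses glutathione in place of thioredoxin, of -0.54 ± 0.46 (SE). In the GENCODE annotation, exons of Prdx2, Prdx5, Gss, Gclm, Txnrd2, Txnip, Keap1 and Mt2 overlap those of a gene on the other strand, and without strand in the libraries the reads could not be told apart.

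**Figure D3:**
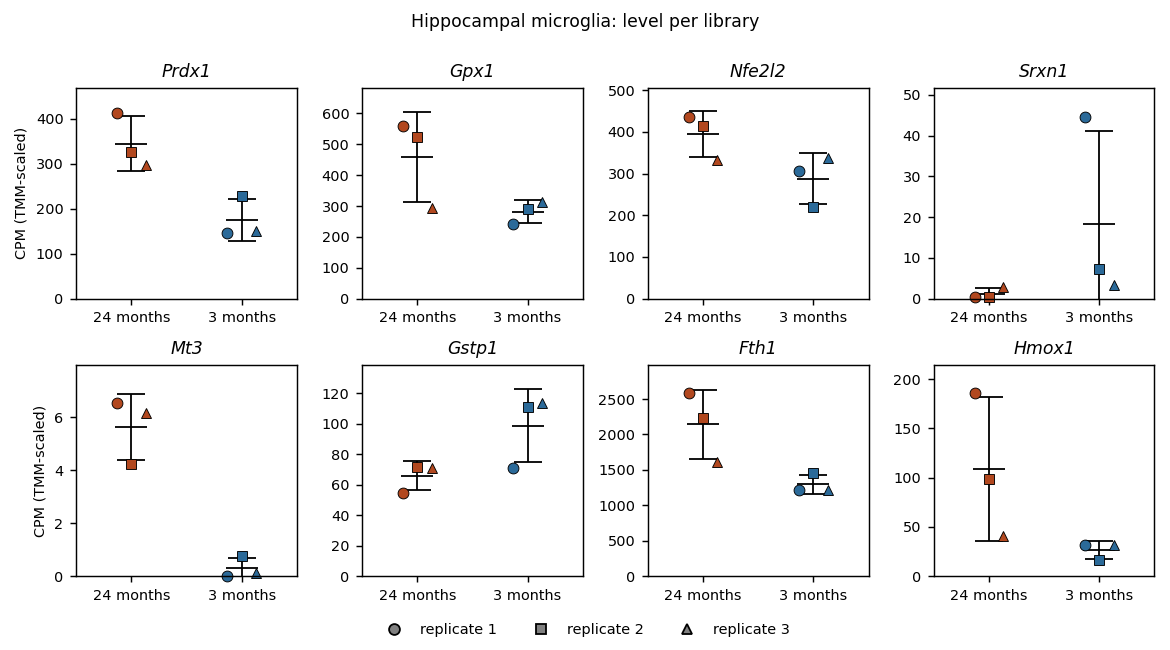
CPM (linear axis from 0) of 6 antioxidant genes and of Fth1 and Hmox1, a pair of iron and heme genes described further on, in microglia, with a point per library (marker shape gives the replicate) and the mean with its SD, 24 months left of 3 months. Prdx1 (295.9 to 412.0 CPM against 146.3 to 228.7 CPM), Mt3, Fth1 and Hmox1 lie higher in all 3 old libraries, Srxn1 lies lower in all 3, and Gpx1, Nfe2l2 and Gstp1 overlap; SD bars that would pass below 0 end at the axis.

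Gpx1, the main cytosolic glutathione peroxidase, had 559.9, 523.3 and 292.9 CPM at 24 months, against 240.3, 291.1 and 312.8 CPM at 3 months. Replicates 1 and 2 of 24 months lay above all young libraries, whereas 24 month replicate 3 lay within the young range. The log2 change was 0.70 ± 0.27 (SE), with an unadjusted p of 0.0344 and an edgeR adjusted p of 0.871. It was 0.92 without 24 month replicate 3, 0.44 with both replicate 1 libraries left out, and 0.05 with 24 month replicates 1 and 2 left out. The immediate-early sum was high in the same pair of libraries as Gpx1, and its part in the Gpx1 value was not tested. Gpx4, which reduces lipid peroxides in membranes, averaged 185.6 ± 29.9 CPM in old and 156.5 ± 51.4 CPM in young microglia (SD, n = 3 each), with a log2 change of 0.25 ± 0.28 (SE). Cat, the peroxisomal catalase, had a log2 change of -0.30 ± 0.29 (SE), and both genes overlapped between ages.

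Sod1, the cytosolic copper and zinc dismutase, had 260.3, 293.1 and 299.5 CPM at 24 months, against 186.9, 299.0 and 283.4 CPM at 3 months. Apart from 3 month replicate 1, which was low, the libraries of both ages lay in the same range. The log2 change was 0.15 ± 0.23 (SE), and it was -0.04 without 3 month replicate 1. Sod2, the mitochondrial manganese dismutase, averaged 36.0 ± 3.95 CPM in old and 38.9 ± 14.8 CPM in young microglia (SD, n = 3 each).

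Metallothioneins are small cysteine-rich proteins that bind zinc and copper and also scavenge radicals, and the 3 genes measured here did not follow the same pattern. Mt1, the abundant one, had 130.6, 64.6 and 84.8 CPM at 24 months, against 149.2, 119.9 and 77.9 CPM at 3 months. The groups overlapped, and the log2 change was -0.31 ± 0.37 (SE). Mt3, the form best known from neurons and astrocytes, had 6.56, 4.24 and 6.17 CPM at 24 months, against 0, 0.748 and 0.136 CPM at 3 months, from 62, 42 and 65 counts against 0, 6 and 2 counts. All old libraries lay above all young ones. Its log2 change was 4.27 ± 1.63 (SE), with an unadjusted p of 0.0319 and an edgeR adjusted p of 0.871, and the authors' deposited table gave an adjusted p of 0.0594. Mt2 ranged over 1.23 to 8.05 CPM at 24 months, against 0 to 1.99 CPM at 3 months, with overlap and no count in 3 month replicates 1 and 3.

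The summed levels of astrocyte and endothelial markers were also higher in the old libraries. The 10 astrocyte markers summed to 346.0, 463.9 and 332.8 CPM at 24 months, against 130.3, 238.4 and 267.6 CPM at 3 months, without overlap. Most of each sum was Slc1a3, with 298.1, 383.7 and 284.9 CPM at 24 months, against 110.1, 223.7 and 246.2 CPM at 3 months. Slc1a3 and Aldoc were the markers that did not overlap between ages, and the other 8 did, S100b for instance at 0 to 1.31 CPM in old, against 0.204 to 3.12 CPM in young microglia. Of these 10, 3 were above 0 in every library, and the defining markers Aqp4 and Gja1 were each seen in a single library, Aqp4 in 3 month replicate 3 at 1.97 CPM and Gja1 in 24 month replicate 2 at 3.43 CPM. The 10 neuronal markers summed to 33.8 to 145.5 CPM at 24 months, against 15.3 to 44.7 CPM at 3 months, with Slc17a7 at 0 throughout. The 10 endothelial markers summed to 52.3, 140.0 and 67.6 CPM at 24 months, against 24.1, 45.9 and 25.5 CPM at 3 months, also without overlap. Each of these 10 markers overlapped between ages on its own. Pecam1 had 36.1, 65.2 and 66.2 CPM at 24 months, against 11.9, 44.6 and 23.6 CPM at 3 months. Kdr, Cldn5, Slco1a4 and Slco1c1 were highest in 24 month replicate 2, and Ly6c1 in 3 month replicate 1. The part of astrocyte, neuronal and endothelial RNA in the Mt3 value was not tested.

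In the thioredoxin system, 0 of 7 genes had an unadjusted p under 0.05, and the log2 changes ran from -0.66 to 0.65. Txnip, which binds and inhibits thioredoxin and is induced by glucose, was the most abundant at 453.2, 679.2 and 306.4 CPM at 24 months, against 435.8, 425.0 and 377.5 CPM at 3 months. The old libraries held both the highest and the lowest value. The log2 change of Txnip was 0.22 ± 0.29 (SE), -0.13 without 24 month replicate 2 and -0.43 with 24 month replicates 1 and 2 left out. Txn1, the cytosolic thioredoxin, averaged 45.1 ± 8.63 CPM in old and 45.5 ± 6.99 CPM in young microglia, and its mitochondrial counterpart Txn2 averaged 88.0 ± 17.2 CPM in old and 112.1 ± 16.6 CPM in young microglia (SD, n = 3 each). Txnrd2, the mitochondrial reductase, and Glrx, glutaredoxin, had log2 changes of -0.31 ± 0.35 and -0.66 ± 0.56 (SE). Txnrd1, the cytosolic thioredoxin reductase, ranged over 6.27 to 15.6 CPM at 24 months, against 0 to 14.2 CPM at 3 months, and Msrb1, which repairs oxidised methionine, over 2.37 to 13.6 CPM at 24 months, against 1.94 to 5.72 CPM at 3 months.

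Glutathione is made in sequence by glutamate-cysteine ligase, of which Gclc is the catalytic and Gclm the modifier subunit, and by glutathione synthetase, encoded by Gss, and it is kept reduced by Gsr. Gss, the most abundant of the 4 in microglia by TPM, had 32.5, 18.6 and 23.6 CPM at 24 months, against 39.7, 1.87 and 41.3 CPM at 3 months. The young libraries enclosed the old ones because 3 month replicate 2 was low, and the log2 change of -0.15 ± 1.04 (SE) ran from -0.72 to 0.23 when each library was left out. Gclc ranged over 2.12 to 21.8 CPM at 24 months, against 2.59 to 46.2 CPM at 3 months. Gclm ranged over 2.62 to 8.92 CPM at 24 months, against 4.11 to 4.63 CPM at 3 months, and Gsr over 1.16 to 7.16 CPM at 24 months, against 0 to 5.79 CPM at 3 months. The log2 changes of these 3 genes had standard errors of 1.09 to 1.76. Counts of Gclc differed widely within each age, at 20, 216 and 27 counts at 24 months, against 619, 103 and 38 counts at 3 months.

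Nfe2l2, which encodes NRF2, had 436.5, 413.2 and 331.6 CPM at 24 months, against 305.7, 220.7 and 337.6 CPM at 3 months. Replicates 1 and 2 of 24 months were highest, and 24 month replicate 3 lay just below the highest young library. The log2 change was 0.45 ± 0.22 (SE), with an unadjusted p of 0.0815 and an edgeR adjusted p of 0.958. It was 0.28 without 3 month replicate 2, and 0.20 with 24 month replicates 1 and 2 left out. Keap1, which marks NRF2 for degradation, ranged over 54.7 to 90.9 CPM at 24 months, against 57.5 to 141.2 CPM at 3 months, with a log2 change of -0.49 ± 0.40 (SE).

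Among the glutathione transferases, Gstp1, the cytosolic pi-class enzyme, had 54.9, 71.9 and 71.3 CPM at 24 months, against 71.3, 111.1 and 114.0 CPM at 3 months. The lowest young library met the upper old ones, and the log2 change was -0.58 ± 0.32 (SE), with an unadjusted p of 0.106. Gstp1 has a close paralog, Gstp2, between which the estimated counts may be divided. Gstm1, a mu-class enzyme, ranged over 5.79 to 47.4 CPM at 24 months, against 0 to 7.61 CPM at 3 months, and Gsto1, an omega-class enzyme, over 28.6 to 49.2 CPM at 24 months, against 26.8 to 73.8 CPM at 3 months. The log2 change of Gstm1 was 2.75 ± 1.75 (SE). Zero counts for Txnrd1, Gsr, Mt3 and Gstm1 occurred in 3 month replicate 1 alone, the library with the greatest number of missing genes, and the part of that library's missing genes in these values was not tested.

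In aged against mature hippocampus, no antioxidant gene passed the test over all genes, and Txnrd1 was the gene whose samples separated by age. All 34 were tested, with 17 log2 changes (18 months minus 6 months) above 0, against a background of 47.2% of all genes, and 17 below. The values are the authors' normalized counts, and log2 changes are on the log2(normalized count + 1) scale, which understates changes of low genes. The median log2 change was 0.01, against -0.04 over the 13491 genes tested, and 23 of the 34 lay within 0.3 of 0, against 42.8% of all genes. With limma and Benjamini-Hochberg adjustment over all genes, 0 of the 34 had an adjusted p under 0.05, where the background was 0 of 13491 genes (0%) and the smallest adjusted p of any gene was 0.155. At an unadjusted p under 0.05, there was 1 gene of the 34 (background 5.37%). It was Txnrd1, which was higher (background 2.13%), and 0 were lower (background 3.24%). Txnrd1 was also the single gene whose groups did not overlap (background 5.03% for higher and 5.93% for lower). In the authors' deposited table for hippocampus, 0 of the 34 had an adjusted p under 0.05, against a background of 0.305%.

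Txnrd1, the cytosolic thioredoxin reductase, had 46.7, 47.4 and 39.5 normalized counts at 18 months, against 26.5, 19.8 and 22.1 at 6 months. All 3 aged samples lay above all 3 mature ones. The means were 44.5 ± 4.34 normalized counts at 18 months and 22.8 ± 3.41 at 6 months (SD, n = 3 each), a ratio of 1.95. The log2 change was 0.94 ± 0.41 (SE), with an unadjusted p of 0.0366 and a limma adjusted p of 0.903, and it was 0.85 to 1.05 when each sample was left out. The authors' deposited table gave 0.93 ± 0.41 (SE) with an adjusted p of 0.548. The antioxidant response element core in the Txnrd1 promoter printed above, which was picked for holding it, begins 92 bases before the start site.

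Txnip had 35.0, 29.8 and 35.9 normalized counts in hippocampus at 18 months, against 6.85, 10.4 and 34.2 at 6 months. Mature replicate 3 matched the aged samples, while the other mature samples lay well below them. The log2 change of 1.23 ± 0.61 (SE) had an unadjusted p of 0.0631. Leaving out 6 month replicate 3 gave 1.87, and leaving out 6 month replicate 1 gave 0.78. Of the 5 other genes of the thioredoxin system, Txn1, Txn2, Txnrd2 and Msrb1 had log2 changes of 0.16 to 1.45 and Glrx of -0.08, each with overlap. Txnrd2 was listed at 0 in 6 month replicate 2, and its standard error was 1.05.

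**Figure D4:**
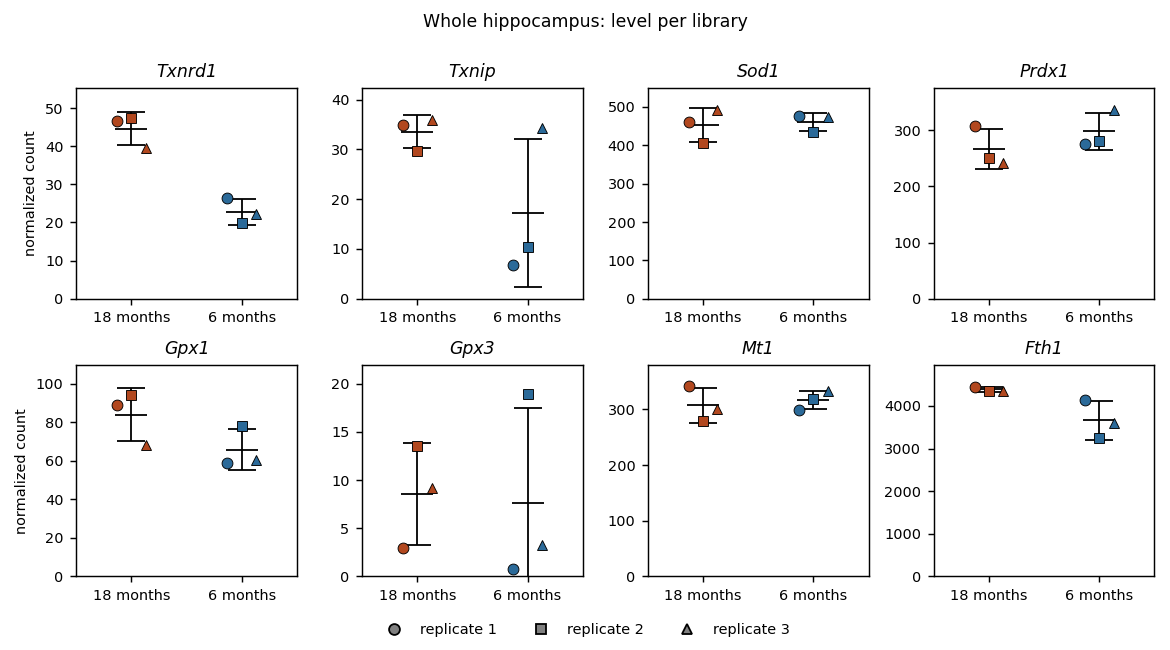
Normalized counts (linear axis from 0) of 7 antioxidant genes and of Fth1, the ferritin heavy chain described further on, in hippocampus, with a point per sample (marker shape gives the replicate) and the mean with its SD, 18 months left of 6 months. Txnrd1 (39.5 to 47.4 against 19.8 to 26.5 normalized counts) and Fth1 stand apart between ages, and Txnip, Sod1, Prdx1, Gpx1, Gpx3 and Mt1 overlap; SD bars that would pass below 0 end at the axis.

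Superoxide dismutases, catalase and glutathione peroxidases overlapped between the ages in hippocampus. Sod1 had 460.4, 404.7 and 491.3 normalized counts at 18 months, against 477.4, 435.0 and 473.5 at 6 months, a log2 change of -0.03 ± 0.15 (SE). Gpx1 had 89.0, 94.5 and 68.4 normalized counts at 18 months, against 59.1, 78.1 and 60.3 at 6 months. Its 2 highest samples were aged and its 2 lowest mature, and the log2 change was 0.34 ± 0.28 (SE), with an unadjusted p of 0.231. Sod2, Sod3, Cat and Gpx4 had log2 changes of -0.39 to -0.06. Gpx3, which in microglia had no count, was listed at 2.98, 13.5 and 9.12 normalized counts at 18 months, against 0.763, 18.9 and 3.25 at 6 months, and no age was consistently higher. A list of 10 choroid plexus markers summed to 4603, 13191 and 684 normalized counts in the same samples of 18 months, against 388, 9294 and 2965 at 6 months. Both Gpx3 and this list were highest in replicate 2 of each age. Between replicates 1 and 3, their order was opposite at 18 months and the same at 6 months. The part of choroid plexus in Gpx3 was not tested.

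Prdx1, whose microglial libraries did not overlap, had 306.9, 250.3 and 242.3 normalized counts in hippocampus at 18 months, against 276.3, 280.7 and 336.6 at 6 months. The samples of both ages were intermixed, with a log2 change of -0.16 ± 0.17 (SE). The microglial and hippocampal changes of Prdx1 come from different ages, tables and normalizations, and the difference between them was not tested. The other 6 genes of that role had log2 changes from -0.37 to 0.17. Srxn1 averaged 66.7 ± 32.0 normalized counts at 18 months and 58.7 ± 12.8 at 6 months (SD, n = 3 each).

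The metallothioneins overlapped between ages in hippocampus, with log2 changes of -0.05 ± 0.16 for Mt1, -0.00 ± 0.30 for Mt2 and 0.06 ± 0.15 for Mt3 (SE). Mt1 had 341.9, 279.6 and 300.1 normalized counts at 18 months, against 299.6, 318.4 and 332.7 at 6 months. Mt3 ranged over 351.3 to 409.0 normalized counts at 18 months, against 363.0 to 377.7 at 6 months, and the mature samples lay within the aged range. Gstp1 had 364.5, 323.8 and 397.5 normalized counts at 18 months, against 347.2, 323.3 and 351.0 at 6 months, a log2 change of 0.08 ± 0.15 (SE). Gstm1 averaged 573.7 ± 91.2 normalized counts at 18 months and 542.7 ± 4.94 at 6 months (SD, n = 3 each). Gsto1 was lower on average, at 21.4 to 60.5 normalized counts at 18 months, against 42.3 to 70.8 at 6 months, with a log2 change of -0.76 ± 0.42 (SE) and an unadjusted p of 0.0966.

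Genes of glutathione synthesis and recycling, Nfe2l2 and Nqo1 were low and variable in hippocampus. Gss had 20.4, 35.1 and 58.5 normalized counts at 18 months, against 42.6, 55.0 and 31.7 at 6 months, and the aged samples held both the lowest and the highest value. Nfe2l2 had 8.97, 45.6 and 18.6 normalized counts at 18 months, against 18.2, 30.7 and 24.1 at 6 months. The aged samples of Nfe2l2 enclosed the mature ones, with a log2 change of -0.25 ± 0.61 (SE) that turned to 0.28 when 18 month replicate 1 was left out and was -0.83 when 18 month replicate 2 was. Nqo1, without a count in microglia, ranged over 7.04 to 36.1 normalized counts at 18 months, against 0 to 7.74 at 6 months, and its log2 change was 1.83 ± 1.02 (SE), with an unadjusted p of 0.0940. Keap1 averaged 88.4 ± 18.5 normalized counts at 18 months and 62.4 ± 25.8 at 6 months (SD, n = 3 each), and Gclc, Gclm and Gsr had log2 changes of 0.03, 0.16 and -0.28.

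A further 159 genes of these pathways were listed by role, of which 106 were tested in microglia and 123 in hippocampus. In microglia, 49 had a log2 change above 0, against a background of 50.5% of all genes, and 57 below 0, with 0 at an edgeR adjusted p under 0.05. At an unadjusted p under 0.05, 2 of the 106 were higher (background 3.52%) and 2 were lower (background 2.02%), shares no greater than those of all genes, and the values that follow describe single genes. Both higher genes belonged to heme and iron handling. Hmox1, heme oxygenase and a standard NRF2 target, had 186.2, 98.4 and 41.2 CPM at 24 months, against 31.7, 16.2 and 32.0 CPM at 3 months. All old libraries were above the young ones, with a log2 change of 2.03 ± 0.60 (SE, edgeR adjusted p 0.629) that was 0.63 with 24 month replicates 1 and 2 left out. Fth1, the ferritin heavy chain, had 2582, 2236 and 1618 CPM at 24 months, against 1211, 1452 and 1222 CPM at 3 months, also without overlap, with a log2 change of 0.73 ± 0.21 (SE, edgeR adjusted p 0.629) that was 0.32 with the same pair left out. The lower ones were Msrb2, a mitochondrial methionine sulfoxide reductase, and Mafg, a small MAF protein that pairs with NRF2. Msrb2 had 90.7, 99.6 and 92.0 CPM at 24 months, against 182.6, 198.1 and 116.2 CPM at 3 months, and a log2 change of -0.82 ± 0.27 (SE). The log2 change of Mafg was -0.63 ± 0.21 (SE), but -0.20 when transcript length entered the fit.

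The cystine transporter that supplies glutathione synthesis was measured in both tables. Its light chain Slc7a11 had 30.4, 6.45 and 4.37 CPM in microglia at 24 months, against 4.03, 2.49 and 1.84 CPM at 3 months. The groups did not overlap, yet the log2 change of 2.30 ± 1.25 (SE) was 0.95 without 24 month replicate 1. The heavy chain Slc3a2 averaged 588.4 CPM in old and 729.4 CPM in young microglia. It overlapped between ages, with a log2 change of -0.31 ± 0.20 (SE). In hippocampus, Slc7a11 overlapped between ages, with a log2 change of 0.04 ± 0.53 (SE), whereas that of Slc3a2 was 0.54 ± 0.24 (SE). In the authors' deposited table for microglia, 2 of the 110 pathway genes with an adjusted p were under 0.05 (background 2.01%), both lower at 24 months, namely Hagh, a glyoxalase that acts with glutathione, and Tkt, a pentose phosphate enzyme (0.0402 each).

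In hippocampus, 79 of the 123 tested pathway genes had a log2 change above 0, against a background of 47.2% of all genes, and 44 below 0, with 0 at a limma adjusted p under 0.05. At an unadjusted p under 0.05, 6 were higher (background 2.13%) and 1 was lower (background 3.24%). The authors' deposited table for hippocampus called 1 of 113 (background 0.305%), the lower one, which was Slc1a1, the neuronal transporter for glutamate and cysteine. It had 155.5, 150.5 and 167.6 normalized counts at 18 months, against 232.3, 297.2 and 242.7 at 6 months. Every aged sample lay below every mature one, with a log2 change of -0.69 ± 0.18 (SE), an unadjusted p of 0.00202, a limma adjusted p of 0.866 and an adjusted p of 0.0482 in the authors' deposited table. Glo1, the first glyoxalase, had 197.3, 210.9 and 238.2 normalized counts at 18 months, against 160.9, 153.4 and 147.6 at 6 months, without overlap (log2 change 0.48 ± 0.18, SE). Rac1, a GTPase that also activates NADPH oxidases, had 343.5, 485.4 and 369.6 normalized counts at 18 months, against 338.2, 103.5 and 198.6 at 6 months. Its log2 change of 1.04 ± 0.32 (SE) was 0.61 without 6 month replicate 2, the lowest sample. The other 4 higher genes were Slc3a2, the heavy chain of the cystine transporter, Ucp2, Fth1 and the selenoprotein gene listed as Sepw1. Fth1 had 4447, 4358 and 4354 normalized counts at 18 months, against 4149, 3245 and 3603 at 6 months, with a log2 change of 0.27 ± 0.12 (SE). Ucp2, a mitochondrial carrier, had 82.5, 144.6 and 11.6 normalized counts at 18 months, against 9.08, 28.0 and 10.3 at 6 months, and its groups overlapped.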

How the data were processed

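Libraries of 12 samples were made from 5 ng of RNA each by oligo-dT priming, template switching, 12 PCR cycles and tagmentation, per the labels' protocols. No molecular identifiers and no strand-keeping kit are named. Per the submitters' processing notes, kallisto, DESeq, DESeq2 and the builds GRCm39 and mm10 were used, with no versions or roles given. For microglia, the authors deposited estimated counts, TPM and average transcript lengths per gene. For each tissue, the authors deposited a table of normalized counts (a signal scaled between samples), log2 fold changes, a Wald statistic (a score), p-values and adjusted p-values, per the file headers. The deposited hippocampus fold change runs 6 over 18 months, and its sign was turned here.

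Estimated counts were rounded and tested with edgeR 4.0.16 in R 4.3.3 (quasi-likelihood, TMM, filterByExpr, 10663 genes), and SEs were derived from the F statistic. Hippocampus values were tested with limma 3.58.1 (mean trend) on log2(normalized count + 1) for 13491 genes at 1 or more in at least 3 samples. Tests were two-sided, with Benjamini-Hochberg adjustment over all genes tested and calls at 0.05. Alternatives included DESeq2 1.42.0, other scalings, filters and pseudocounts, each library left out, and the replicate number as a block. The entry without a gene name (0.0546% to 0.0771% of microglial counts, 0.0233% to 0.0335% of hippocampal signal) was left out. Hippocampal columns summed to 974126 to 1002529. Of their low values, 39.0% to 55.4% came out as whole steps within a tolerance of 0.1, too few to recover reads, and depth is unknown. PCR reads without molecular identifiers are not independent molecules, so floors cover counting error only. Fits were tested on simulated data.

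The genes and lists were chosen with earlier results of these data known. Values for every sample are given for genes whose groups did not overlap, whose unadjusted p or deposited adjusted p was under 0.05, or which had the highest TPM of their role in microglia. Up to 3 genes of each other pathway list with the smallest p were eligible to be named. Some pathway genes whose groups did not overlap are therefore not named, and not every named one has values for every sample. Gpx3, Tkt, and the ranges given for other genes, were added after their values were seen. Older selenoprotein symbols in the files were matched through RefSeq synonyms.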

Additional observations from a re-analysis of the deposited data

How the results depend on the processing

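None of the antioxidant genes or the other pathway genes had an adjusted p under 0.05 in any alternative run in either tissue (0 each). Over all genes in microglia, 0 were called by edgeR (590 at an unadjusted p under 0.05), 251 by DESeq2, and 0 to 55 with each library left out, the 55 without 24 month replicate 3. In hippocampus 0 were called (725 at an unadjusted p under 0.05), 1 without a variance trend, and 0 to 1 with each sample left out, the 1 without 6 month replicate 1. Genes with a higher mean at the older age numbered 12 to 16 in microglia and 17 to 21 in hippocampus over the alternatives, against 15 and 17 as reported.

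Of 504 alternative values for 39 named log2 changes, 493 kept their direction and 11 reversed, and 32 of the 39 had no reversal. In microglia with each library left out, Gss ran from -0.72 to 0.23, Txnip from -0.13 to 0.43 and Sod1 from -0.038 to 0.26. Txnip was -0.43 with 24 month replicates 1 and 2 left out. In hippocampus the ranges were -0.63 to 0.11 for Gss, -0.83 to 0.28 for Nfe2l2, -0.096 to 0.043 for Sod1 and -0.13 to 0.017 for Mt1. The cause was not tested. Replicate numbers did not pair the samples: same-numbered samples correlated at -0.027 to 0.065 in microglia and at 0.0094 to 0.014 in hippocampus. With the replicate number as a block, 0 genes were called in either tissue, 2 antioxidant genes in microglia and 0 in hippocampus had an unadjusted p under 0.05, and Gss in microglia was 0.56.

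Precision was lowest for low genes: Gclc, Gclm, Gsr, Gss, Srxn1, Txnrd1, Msrb1, Mt2, Mt3 and Gstm1 averaged under 30 CPM and had standard errors above 1 on the log2 scale in microglia. Counts within an age could differ by far more than counting error, as for Gss with 532, 15 and 607 counts at 3 months. A fit that leaves 1 library in an age group assumes that it varies like the others.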
